A study of Mus musculus with 8 samples.

Results

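The contractile apparatus of smooth muscle was described by 10 genes, chosen by symbol from the 52195 measured in bulk RNA-seq of mouse kidney, liver, lung and small intestine. They were Acta2, Actg2, Myh11, Cnn1, Des, Lmod1, Smtn, Synpo2, Tagln and Myocd. The 8 libraries were 2 per tissue, from untreated male C57BL/6 mice (C57BL/6J in the methods) of 6 to 10 weeks, with no transgene or mutation given for any group. Each tissue was ground whole, so every library mixed the muscle of that organ's vessels with whatever muscle its wall or airways contain. The study made these libraries as bulk data in which to estimate cell types. Levels are FPKM, fragments scaled to exon length and sequencing depth, and differences are on the log2(FPKM + 1) scale with the standard error (SE) of the limma fit.

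Smooth muscle shortens when calcium and calmodulin switch on myosin light chain kinase and myosin pulls on actin filaments anchored in dense bodies. Vessel walls are known for the α actin encoded by Acta2, whereas the muscle layers of the gut also carry much of the enteric γ actin encoded by Actg2 and of desmin, the intermediate filament protein encoded by Des. Myocardin, encoded by Myocd, is a coactivator of serum response factor (SRF), which binds a DNA element called the CArG box in many promoters of this program.

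The CArG box is the letter pattern that ties these genes together in textbooks, so the 250 bases before the start of each gene were read from RefSeq (GRCm38.p6), which matched 6 of the 10 genes (Acta2, Cnn1, Des, Lmod1, Smtn and Synpo2). An exact CArG box, searched on both strands (the pattern reads the same on each), was in 0 of the 6 windows and in 1.47% of all 32851 promoter windows. Elsewhere in or near these genes no search was made. The Smtn window (chr11:3539293-3539542) lies inside that gene as GENCODE M21 places it (chr11:3517523-3540612, minus strand). A CArG-like match, with at most 1 G or C among the 6 central bases, was in 1 of the 6 windows and in 8.59% of all windows. That window was the Acta2 promoter, at chr19:34255374-34255623 on the minus strand, which held 2 such matches, as did 0.670% of all windows when windows with more than 2 are included. They start 84 and 34 bases before the RefSeq start of Acta2. GENCODE M21 places the start of Acta2 further upstream, so that 217 of the 250 bases, both matches included, lie in its exon 1 (chr19:34255290-34255590). The matches are shown in capitals with 10 bases on each side, at chr19:34255438-34255467 for the first and chr19:34255388-34255417 for the second. The Des promoter, at chr1:75360042-75360291 on the plus strand, is shown beside them as the window of a gene associated with visceral muscle, and held no match.
Acta2, first match: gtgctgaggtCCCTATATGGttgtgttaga
Acta2, second match: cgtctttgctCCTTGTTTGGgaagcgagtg
Des: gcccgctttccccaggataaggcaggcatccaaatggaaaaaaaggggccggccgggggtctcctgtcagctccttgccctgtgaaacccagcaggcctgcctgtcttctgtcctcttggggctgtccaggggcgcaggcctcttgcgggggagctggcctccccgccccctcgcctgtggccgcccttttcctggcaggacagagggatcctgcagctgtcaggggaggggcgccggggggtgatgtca

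All 10 genes were higher in each of the 4 lung and small intestine libraries than in each of the 4 kidney and liver libraries, an order that 32.9% of the 16328 tested genes also had. Tagln and Myocd were not tested. Of the 8 tested, Actg2, Cnn1, Lmod1 and Synpo2 reached the FPKM of 1 that the test required only in lung and small intestine. The summed FPKM of the 10 genes was 269.8 and 273.1 in lung and 325.8 and 266.1 in small intestine. It was 29.1 and 22.3 in kidney and 5.03 and 5.0 in liver. In bulk tissue, fewer muscle cells and less RNA per muscle cell cannot be told apart.

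**Figure D1:**
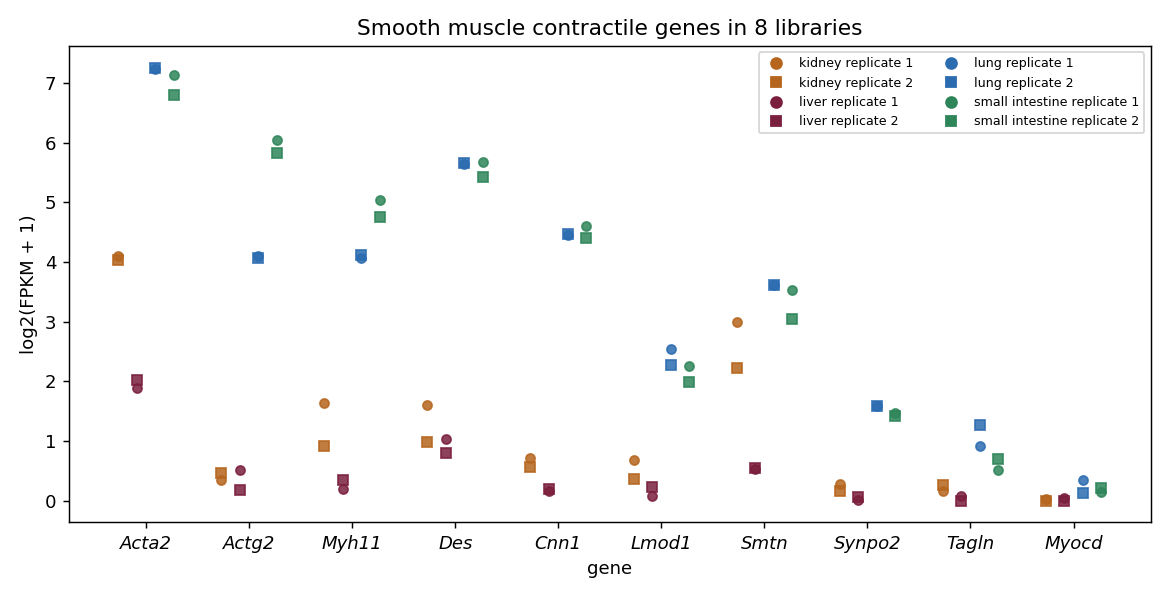
Level of the 10 smooth muscle contractile genes, as log2(FPKM + 1), in each of the 8 libraries; circles and squares are replicates 1 and 2 of a tissue. For every gene the lung and small intestine points lie above the kidney and liver points, and for Actg2 and Myh11 the small intestine points also lie above those of lung.

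Acta2, the α smooth muscle actin, lies at chr19:34241090-34255590 on the minus strand (GRCm38) and was the highest of the 10 genes in every library. Its FPKM was 149.2 and 152.0 in lung, 138.9 and 109.9 in small intestine, 16.1 and 15.3 in kidney and 2.70 and 3.05 in liver. The order lung, small intestine, kidney, liver held without overlap between libraries, although the test called no difference between lung and small intestine (log2 difference -0.28, SE 0.15, adjusted p = 0.143 by limma). Kidney was above liver by 2.11 (SE 0.15, adjusted p = 2.57e-05).

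Actg2, the enteric γ actin, lies at chr6:83512905-83536265 on the minus strand. Among the tested members it had the largest log2 difference between small intestine and the other tissues. Its FPKM was 65.2 and 55.6 in small intestine, 16.1 and 15.8 in lung, 0.270 and 0.371 in kidney and 0.421 and 0.124 in liver. Both small intestine libraries lay far above lung, and kidney and liver overlapped at a level of 2 to 10 reads per library. Against the mean of the other tissues the small intestine was higher by 4.33 (SE 0.15, adjusted p = 5.8e-07 by limma), and an exact two-sided permutation test over the 8 libraries gave p = 0.0357, the smallest that 2 of 8 allow. The same exact permutation test for small intestine gave p = 0.0714 for Myh11 and p = 0.214 to 0.393 for Acta2, Cnn1, Des, Lmod1 and Smtn. Against lung alone the difference was 1.85 (SE 0.18, adjusted p = 7.49e-05).

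Myh11, the smooth muscle myosin heavy chain (chr16:14194535-14291372, minus strand), had an FPKM of 31.7 and 25.9 in small intestine, 15.8 and 16.4 in lung, 2.12 and 0.880 in kidney and 0.148 and 0.263 in liver. It was the other member whose small intestine libraries were both above the remaining 6, a position held by 2 of the 10 genes and by 12.8% of tested genes. Both lung libraries were above the remaining 6 for 5 of the 10 (Acta2, Lmod1, Smtn, Synpo2 and Tagln) and for 51.4% of tested genes. Tagln and Myocd, counted among the 10, were not tested genes. The difference of Myh11 between small intestine and lung was 0.80 (SE 0.25, adjusted p = 0.0263 by limma), below the required log2 difference of 1.

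Des, at chr1:75360329-75368579 on the plus strand, did not follow Actg2. Its FPKM was 49.9 and 41.9 in small intestine and 48.8 and 49.2 in lung, so the libraries of these tissues overlapped. The difference was -0.10 (SE 0.23, adjusted p = 0.730 by limma). Kidney, at 2.04 and 0.969, and liver, at 1.05 and 0.748, also overlapped. Desmin is a protein of cardiac and skeletal muscle too, and transcripts of heart muscle were present in the lung libraries, as given below.

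Cnn1, which encodes the actin-binding protein calponin 1, was as close between the leading tissues as Des. Its FPKM was 23.3 and 20.2 in small intestine, 20.9 and 21.2 in lung, 0.648 and 0.486 in kidney and 0.120 and 0.142 in liver. The difference between small intestine and lung was 0.04 (SE 0.16, adjusted p = 0.837 by limma).

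Lmod1, a leiomodin that starts new actin filaments, was low throughout. Its FPKM was 4.82 and 3.85 in lung, 3.76 and 2.95 in small intestine, 0.602 and 0.278 in kidney and 0.0553 and 0.172 in liver, the first from 2 reads. Lung and small intestine were next to each other in order, and the test called no difference (-0.29, SE 0.20, adjusted p = 0.221 by limma).

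Smtn, which encodes the cytoskeletal protein smoothelin, was the tested member with the smallest log2 difference between kidney and the leading tissues. Its FPKM was 11.2 and 11.2 in lung, 10.6 and 7.24 in small intestine, 6.98 and 3.69 in kidney and 0.448 and 0.464 in liver. Small intestine and kidney were next to each other in order, and the test called no difference (0.68, SE 0.28, adjusted p = 0.0849 by limma). Kidney was above liver by 2.07 (SE 0.28, adjusted p = 0.000792). Of the Smtn exon length, 16.3% is shared with other annotated genes, mainly Gm11946, which had 91 and 79 reads in small intestine against 0 to 4 in each of the other libraries. Smtn itself had 435 and 359 reads in small intestine.

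Synpo2, whose product synaptopodin 2 binds actin and α-actinin in dense bodies and Z-discs, had an FPKM of 2.0 in each lung library, 1.78 and 1.67 in small intestine, 0.209 and 0.114 in kidney and 0.00831 and 0.0442 in liver, the first from 1 read. Lung and small intestine differed by -0.14 (SE 0.12, adjusted p = 0.335 by limma), and their libraries did not overlap.

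Tagln and Myocd did not reach an FPKM of 1 in 2 libraries, which the test required, so neither was fitted by limma. Tagln encodes transgelin, an actin-binding protein, and its deposited FPKM of 0.876 and 1.42 in lung and 0.430 and 0.622 in small intestine rested on 17 and 35 reads and on 8 and 14 reads. Kidney had 5 and 7 reads and liver 1 and 0. The gene lies on the minus strand at chr9:45929619-45936058 (GRCm38), and 1349 of its 1988 exon bases (67.9%) also belong to exons of other genes, 1241 of them to Gm48529, an antisense gene on the plus strand, and 108 to Pcsk7. Whether the counting used strand is not given in the sources used here, and without strand the reads of Tagln and Gm48529 cannot be told apart. Gm48529 itself had 15 and 24 reads in lung and 11 and 10 in small intestine. Had every Tagln read come from the 639 bases that no other gene shares, its FPKM over those bases would have been 2.72 and 4.41 in lung and 1.34 and 1.93 in small intestine, far below Acta2 in the same libraries.

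Myocd was at the limit of detection. It had 17 and 7 reads in lung, 6 and 11 in small intestine, 3 and 0 in kidney and 2 and 0 in liver, and its FPKM did not pass 0.271. Lung and small intestine overlapped, and in kidney and liver no library had more than the 3 reads taken as the detection floor.

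Across the 8 tested members, 7 were called higher in small intestine than in the mean of kidney, liver and lung (adjusted p under 0.05 and a log2 difference over 1), where 13.7% of all tested genes were. Of the 8, Actg2, Cnn1, Lmod1 and Synpo2 reached the FPKM of 1 that the test required only in lung and small intestine. The differences ran from 4.33 for Actg2 to 1.04 for Smtn, and Synpo2 stayed below the required size at 0.83 (SE 0.10, adjusted p = 0.00024 by limma). Synpo2 passed it with a pseudocount of 0.1 (2.16) and with limma-voom on recovered reads (3.11), so that 8 of 8 were called, beside 19.0% and 19.9% of all genes. Without small intestine replicate 1 the calls of Smtn (0.79) and Lmod1 (0.96) were lost, and without kidney replicate 2 that of Smtn (0.91). In lung, 8 of 8 were called higher, where 40.7% of all genes were, and the call of Synpo2 was lost without kidney replicate 2 (0.999). In liver, 8 of 8 were called lower, beside 32.7% of all genes, with Acta2 at -4.14. In kidney, 6 of 8 were called lower, beside 16.1% of all genes, and the call of Lmod1 was lost with 1 library left out (-0.88). The 2 others there were Synpo2 at -0.81 and Smtn at 0.13 (SE 0.23, adjusted p = 0.638 by limma), the latter -0.25 without kidney replicate 1. Synpo2 was called lower in kidney with a pseudocount of 0.1 (-1.60) and with limma-voom on recovered reads (-1.46), which gave 7 of 8 beside 26.7% and 25.7% of all genes. The exact permutation test of each tissue against the other 6 libraries gave p = 0.0714 to 0.429 for the 8 members in lung and p = 0.25 to 0.429 for the 6 called lower in kidney. In liver the exact permutation test gave p = 0.0357 for 6 of the 8, with Des at p = 0.0714 and Actg2 at p = 0.214. Between kidney and liver, 3 of 8 (Acta2, Smtn and Myh11) were called higher in kidney, beside 16.2% of all genes, and the call of Myh11 (1.01) was lost without kidney replicate 1 (0.64) or either liver library (0.94 with adjusted p = 0.0937 without replicate 1 and 1.08 with adjusted p = 0.0560 without replicate 2), with median-of-ratios scaling (0.96) and when rescaled to the same sum (0.93). These 2 scalings left 2 of 8, beside 11.4% and 13.2% of all genes. A pseudocount of 0.1, which shrinks low levels less, gave 6 of 8, with Myh11 at 2.30, Cnn1 at 1.52, Lmod1 at 1.33 and Synpo2 at 1.04, beside 24.8% of all genes. Limma-voom on recovered reads gave 5 of 8, the same without Lmod1 (1.90, adjusted p = 0.0556), beside 23.3%.

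These directions depend in part on scale, since the median log2 difference over all tested genes was 0.82 for lung, -0.72 for liver, -0.34 for kidney and -0.01 for small intestine against the other tissues. With median-of-ratios scaling, which brought these medians to between -0.14 and -0.02, 4 of 8 members were called higher in lung, beside 14.6% of all genes, and 7 of 8 in small intestine, beside 13.0%. The 4 that lost the lung call were Actg2 (0.98), Lmod1 (0.79), Smtn (0.54) and Synpo2 (0.50), and all 4 stayed above 0. In kidney 4 of 8 were then called lower, without Acta2 (-0.99) and Lmod1 (-0.77), beside 12.1% of all genes. In liver it was 7 of 8, without Synpo2 (-0.83), beside 14.0%. Of all genes called, the share that was higher moved with this scaling from 83.1% to 47.8% in lung, from 16.7% to 46.8% in liver, from 35.0% to 48.8% in kidney, from 24.8% to 51.3% in small intestine against lung and from 70.1% to 51.8% in kidney against liver. Rescaling to the same sum left 5 of 8 in small intestine, without Smtn (0.91) and Lmod1 (0.95), beside 12.2% of all genes. Leaving out mitochondrial genes left 6 in small intestine, without Smtn (0.95), beside 13.0%. It left 7 in lung, without Synpo2 (0.85), beside 29.1%, and 4 called lower in kidney, without Acta2 (-0.75) and Lmod1 (-0.81), beside 11.2%.

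Small intestine was set against lung because these tissues had the highest levels of the members, and both hold vessel muscle as well as muscle of their own walls or airways. Actg2 was called higher in small intestine, 1 of 8 members, where 10.1% of all genes were called higher and 30.6% lower, and 0 of 8 were called lower. With the adjusted p alone 2 of 8 were higher (Actg2 and Myh11), beside 14.7% of all genes. The difference of Myh11 ran from 0.65 to 0.94 with 1 library left out. It did not pass the adjusted p when rescaled to the same sum. The median over all genes was -0.57. Relative to that median, the difference was 2.42 for Actg2, 1.37 for Myh11 and between 0.25 and 0.61 for the other 6. With median-of-ratios scaling Acta2, Des, Lmod1, Smtn and Synpo2 turned from negative to positive differences, at 0.30 to 0.67. Myh11 passed the threshold with that scaling at 1.52 (SE 0.19, adjusted p = 0.000402 by limma). This gave 2 of 8 called higher, beside 15.8% of all genes, and 0 of 8 lower, beside 15.0%. Rescaling to the same sum turned Cnn1 to -0.31 and left Myh11 uncalled at 0.44 (SE 0.29, adjusted p = 0.192 by limma).

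**Figure D2:**
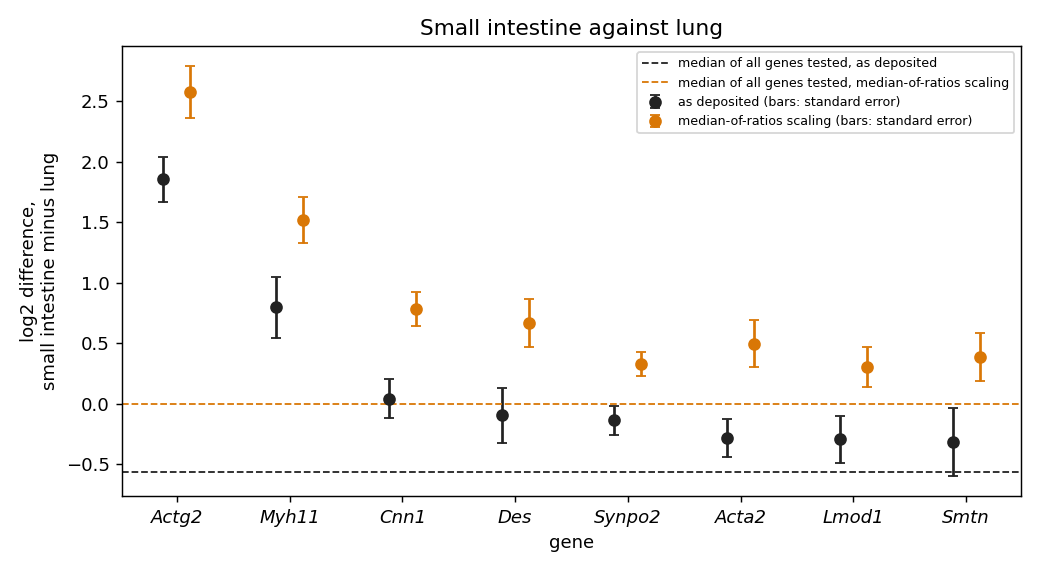
Log2 difference between small intestine and lung for the 8 tested members, with the FPKM as deposited (black) and after median-of-ratios scaling (orange); bars are standard errors and dashed lines the median of all tested genes. Actg2 lies furthest above the median under both scalings, Myh11 next, and Acta2, Des, Lmod1, Smtn and Synpo2 change sign between the scalings.

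Ratios within a library do not depend on such scaling. The FPKM of Actg2 divided by that of Acta2 was 0.470 and 0.506 in small intestine, 0.108 and 0.104 in lung, 0.0167 and 0.0242 in kidney and 0.156 and 0.0409 in liver, where the liver values rested on 6 and 2 reads of Actg2 and the second was below the detection floor of 3 reads. The libraries of small intestine were thus above every other library for this ratio.

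The ratio of Des to Acta2 was 0.359 and 0.382 in small intestine and 0.327 and 0.324 in lung. Liver, at 0.388 and 0.246, spanned both of them, and kidney was lowest at 0.126 and 0.0633. Desmin, the second of the genes associated with visceral muscle, thus did not place the small intestine apart from liver by this measure.

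Myh11 relative to Acta2 was 0.229 and 0.235 in small intestine and 0.106 and 0.108 in lung. Kidney had 0.131 and 0.0575 and liver 0.0549 and 0.0863, both below the small intestine. Actg2 relative to Myh11 was 2.06 and 2.15 in small intestine and 1.02 and 0.962 in lung. Kidney had 0.127 and 0.422, and liver 2.84 and 0.473 from at most 21 reads of either gene. Relative to myosin as well as to Acta2, Actg2 was thus higher in both small intestine libraries than in both lung libraries.

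Cnn1 relative to Acta2 was 0.168 and 0.184 in small intestine and 0.140 and 0.139 in lung, above the 0.0317 to 0.0465 of the kidney and liver libraries. Smtn ran the other way. Its ratio to Acta2 was 0.433 and 0.241 in kidney, 0.166 and 0.152 in liver, 0.0749 and 0.0735 in lung and 0.0764 and 0.0659 in small intestine.

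**Figure D3:**
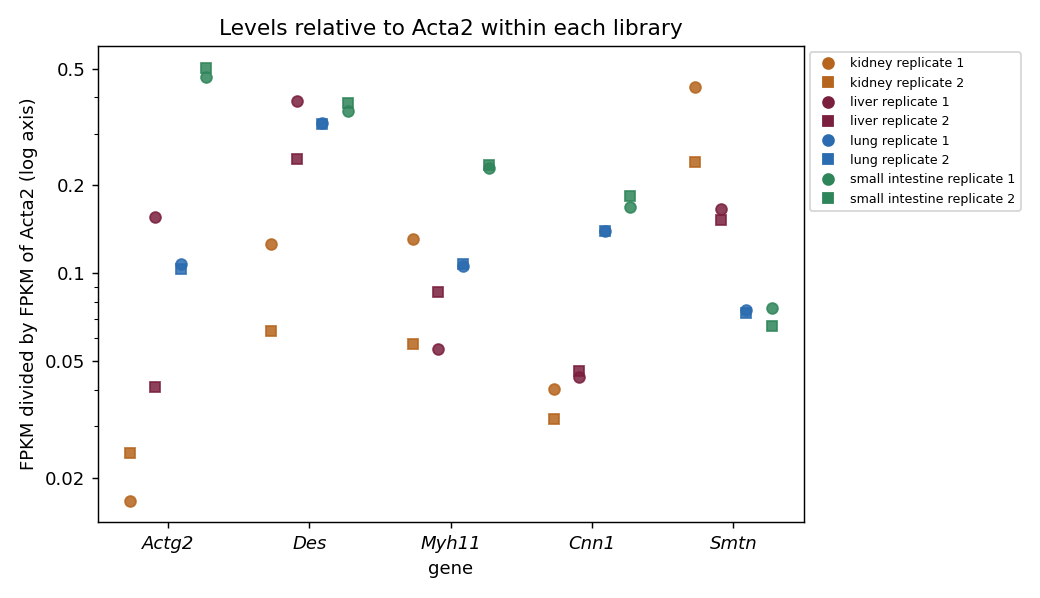
FPKM of 5 members divided by the FPKM of Acta2 in the same library, on a log axis; circles and squares are replicates 1 and 2. The Actg2 ratio is highest in small intestine, at 0.470 and 0.506, the Des ratio overlaps between small intestine and liver, and the Smtn ratio is highest in kidney.

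As shares of the summed FPKM of the 10 genes, Acta2 made up 42.6% and 41.3% in small intestine and between 53.6% and 68.6% in the other 6 libraries. Actg2 made up 20.0% and 20.9% in small intestine, 5.97% and 5.77% in lung and 0.925% to 8.36% in kidney and liver. Smtn made up 24.0% and 16.6% in kidney and 2.72% to 9.28% elsewhere. Des was lowest in kidney, at 6.99% and 4.35%, and between 15.0% and 20.8% in the other tissues. These shares describe 2 libraries per tissue and were not tested.

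**Figure D4:**
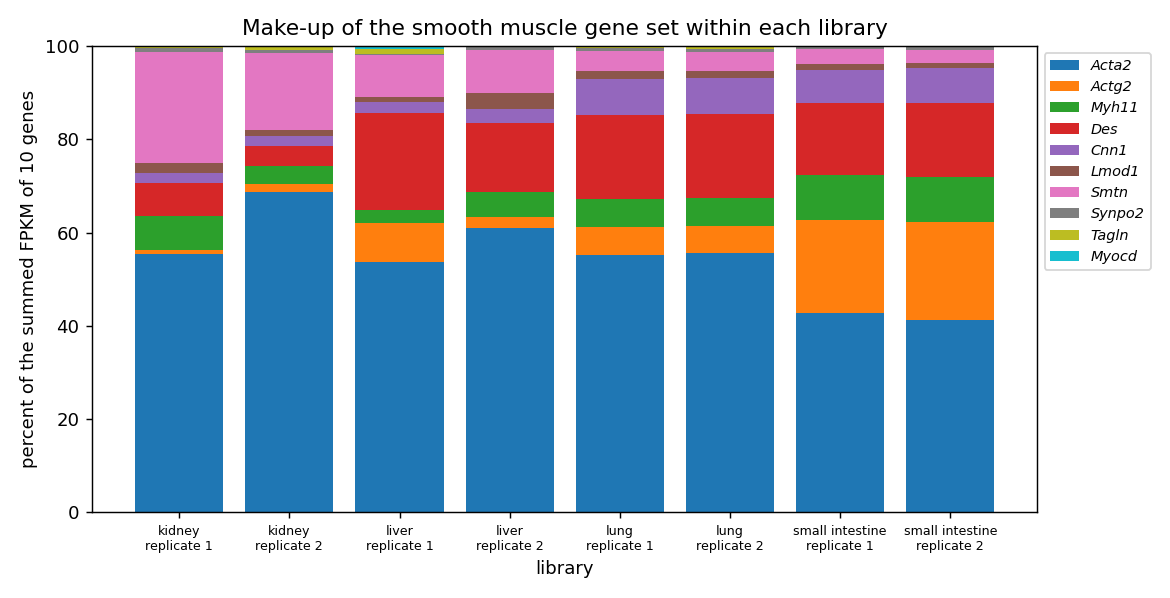
Share of each member in the summed FPKM of the 10 genes, in percent, for each library. Acta2 is the largest part of every bar, the Actg2 part is about 20.0% in both small intestine libraries, and the Smtn part is largest in kidney.

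As folds of the FPKM, the kidney replicates lay further apart than those of lung and of small intestine for 7 of the 8 tested members, all but Acta2, and further apart than those of liver too for 4 (Cnn1, Des, Myh11 and Smtn). On the log2(FPKM + 1) scale they lay further apart than those of each other tissue for 5 of 8 (Des, Lmod1, Myh11, Smtn and Synpo2). Replicate 1 was above replicate 2 by 2.41-fold for Myh11, 2.17-fold for Lmod1, 2.10-fold for Des, 1.89-fold for Smtn and 1.83-fold for Synpo2. Acta2 was 1.05-fold higher in replicate 1 and Actg2 was lower, at 0.73 of replicate 2. The median over all genes whose FPKM was at least 1 in both kidney libraries was 1.23-fold.

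The machinery that switches myosin on was measured beside the members. Of 12 genes of myosin light chain control, 10 were tested, and 3 were higher in small intestine (13.7% of all genes were), namely Myl9 (2.60), the regulatory light chain, Mylk (1.83), the light chain kinase, and Myl6 (1.11), the essential light chain. Myl9 had an FPKM of 163.5 and 132.3 in small intestine and 135.1 and 140.6 in lung. In lung 10 of 10 were higher than in the other tissues, beside 40.7% of all genes, and 2 with median-of-ratios scaling, beside 14.6%. Of the 10, Ppp1r12b reached the FPKM of 1 that the test required only in lung and small intestine. Ppp1r14a, which encodes the myosin phosphatase inhibitor CPI-17, had the lowest difference of the list in small intestine (-0.84). Its FPKM was 36.7 and 52.0 in lung and 2.58 and 1.42 in small intestine, a difference of -3.93 (SE 0.29, adjusted p = 1.65e-05 by limma) and of -3.13 with median-of-ratios scaling.

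Of 14 thin filament and dense body genes, all tested, 4 were higher in small intestine and 1 lower, where 13.7% of all genes were called higher and 11.3% lower. Of the 14, Pdlim3, Synm and Tgfb1i1 reached the FPKM of 1 that the test required only in lung and small intestine. Tpm2 (2.86) and Tpm1 (2.15) encode tropomyosins, and Pdlim3 (1.46) and Synm (1.04) encode a PDZ-LIM protein and the intermediate filament protein synemin, the last named because the count was small. Fhl1, a LIM protein also known from skeletal and cardiac muscle, was lower (-1.53). In lung 13 of 14 were higher than in the other tissues (40.7% of all genes), and 10 with median-of-ratios scaling (14.6%). Tpm2 had an FPKM of 44.8 and 31.03 in small intestine and 27.0 and 20.2 in lung.

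Among 10 calcium and potassium channel genes, 5 were tested. Kcnmb1, the β subunit of the large-conductance potassium channel, had an FPKM of 3.40 and 2.69 in lung and 1.35 and 1.03 in small intestine. Cacna1c, a pore subunit of L-type calcium channels, was at 1.21 and 1.39 in lung and at most 0.204 elsewhere, and Trpc6, a cation channel, at 4.73 and 5.38 in lung and at most 0.122 elsewhere. Both entered the test only through lung, so no count of channels called in lung or small intestine is given.

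Of 12 transcriptional regulators, 10 were tested. In small intestine 3 were higher, Klf5 (4.16), Gata6 (2.92) and Klf4 (2.90), and 1 was lower, Tead1 (-1.77), beside 13.7% of all genes higher and 11.3% lower. All 3 that were higher encode factors that gut epithelium also uses. Of the 10, Klf5 reached the FPKM of 1 that the test required only in lung and small intestine. Elk1 and Mef2c entered the test only through lung, so no count for lung is given. Srf, chosen here as the partner of myocardin after its values were seen, had an FPKM of 9.76 and 12.7 in lung, 5.04 and 5.26 in small intestine, 3.62 and 3.23 in kidney and 1.73 and 2.04 in liver, so that it was well above the level of Myocd in every library.

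Of 13 markers of muscle around vessels and of pericytes, all tested, Cspg4, Ednra, Heyl, Higd1b and Notch3 entered the test only through lung, so no count between lung and small intestine is given. Pdgfrb, the platelet-derived growth factor receptor of pericytes, had an FPKM of 13.9 and 18.8 in lung, 1.85 and 1.5 in small intestine, 2.31 and 1.13 in kidney and 0.777 and 0.990 in liver. Mcam, a cell adhesion molecule of vessel walls, was at 77.2 and 84.7 in lung, 5.55 and 4.32 in small intestine and at most 3.44 in kidney and liver. Rgs5, a regulator of G protein signalling, was higher in small intestine, with an FPKM of 28.1 and 23.4 in small intestine and 4.17 and 2.28 in lung (difference 2.69, SE 0.30, adjusted p = 0.000133 by limma). Abcc9, Aoc3, Cspg4 and Kcnj8 were not called between small intestine and lung, and Agtr1a was called higher in liver than in the other tissues. The summed FPKM of the list was 178.2 and 209.3 in lung, 50.2 and 41.5 in small intestine, 32.5 and 24.2 in kidney and 30.1 and 32.8 in liver. Mcam alone made up 77.2 and 84.7 of the sums in lung. The sum was higher in both lung libraries than in both libraries of small intestine, and it was not tested. Acta2 was also higher in both lung libraries, although its difference between these tissues was not called.

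Genes of gut muscle were mostly too low to test, 3 of 10. Nkx2-3, a homeobox factor of gut mesenchyme, had an FPKM of 9.05 and 5.77 in small intestine and at most 0.0485 elsewhere. Chrm2, the M2 muscarinic receptor, was at 1.48 and 1.18 in small intestine and 2.49 and 2.41 in lung. Foxf1, a forkhead factor of lung and gut mesenchyme, was at 3.14 and 3.95 in small intestine and 79.3 and 105.4 in lung (difference -4.35, SE 0.20, adjusted p = 2.04e-06 by limma). The sum of the list, most of which was Foxf1 in lung, was 82.7 and 108.9 in lung and 18.3 and 13.4 in small intestine. The 3 markers of interstitial cells of Cajal, the pacemaker cells of the gut wall, summed to 3.0 and 2.73 in small intestine and 25.8 and 28.6 in lung. Of 8 enteric neuron genes 3 were tested. Vip, a neuropeptide, had an FPKM of 5.53 and 5.97 in small intestine and at most 0.0903 elsewhere, so that it entered the test only through small intestine. Uchl1, a neuronal ubiquitin hydrolase, was at 4.19 and 4.0 in small intestine and 4.83 and 1.87 in lung.

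Markers of other cells that express some of the members were summed beside them, and these sums were not tested. Cardiac muscle genes (12, of which 8 were tested) summed to 266.2 and 270.7 in lung, 8.59 and 9.39 in small intestine, 1.81 and 1.24 in kidney and 0.441 and 0.669 in liver. In lung 8 of the 12 were at an FPKM of 1 or more in both libraries, with Myl7 at 109.2 and 107.3 and Actc1 at 81.8 and 89.6. Des, Synpo2 and Myocd are also expressed in heart muscle, and the part of these transcripts in their lung values was not tested. Skeletal muscle genes summed to 50.1 and 9.0 in lung, where Acta1 had 26.7 in replicate 1 and 0.262 in replicate 2, and to 11.3 and 11.4 in small intestine. Des was at 48.8 and 49.2 in these 2 lung libraries, and the part of skeletal muscle in its level was not tested. Fibroblast genes summed to 238.4 and 208.1 in lung, 41.8 and 39.0 in small intestine, 35.2 and 41.3 in liver and 13.1 and 8.39 in kidney, and their part in the levels of Acta2 was not tested either.

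**Figure D5:**
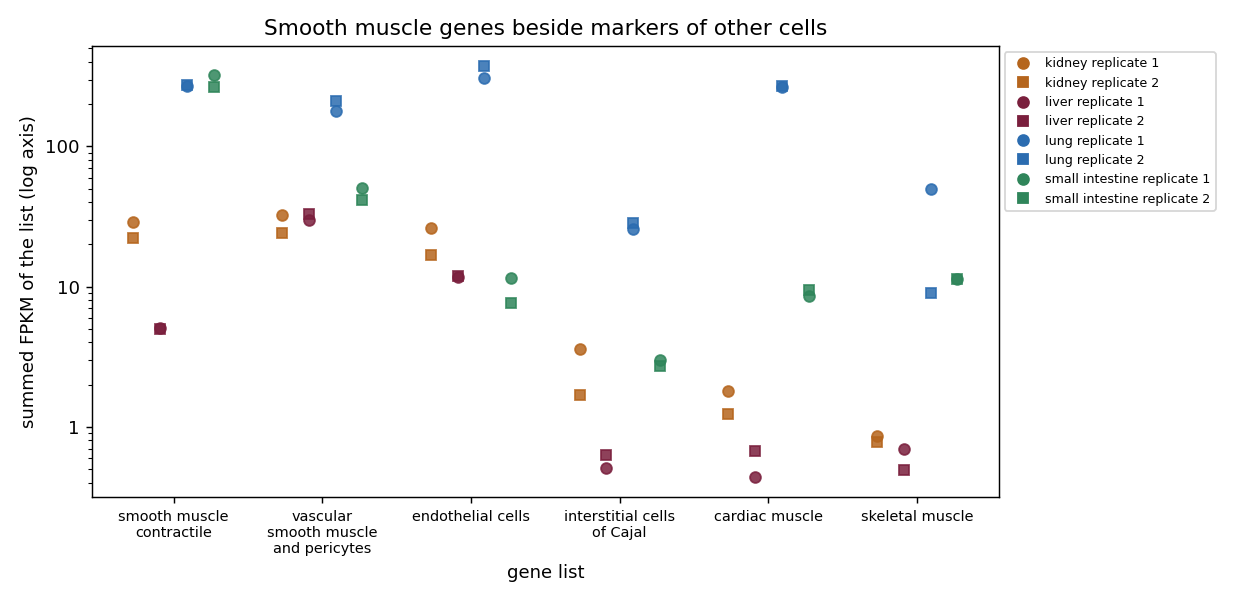
Summed FPKM of the 10 smooth muscle contractile genes and of 5 marker lists in each library, on a log axis. The smooth muscle sums of lung and small intestine overlap, whereas the sums for pericytes, endothelial cells, interstitial cells of Cajal and cardiac muscle are highest in lung.

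Of the actins found in most cells, Actb had an FPKM of 616.7 and 702.9 in lung and 493.5 and 730.3 in small intestine, and Actg1 490.9 and 484.4 in lung and 353.7 and 375.6 in small intestine. Acta2 shares 1.39% of its 31-base words with any other annotated gene and Actg2 1.21%.

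The genes whose log2(FPKM + 1) most resembled that of a member over the 8 libraries, among 7085 genes ranked, with the members left out, were Gm10051 for Acta2 (Pearson's r 0.998), Krt19 for Actg2 (0.999), Lrrc26 for Des (0.998) and Igkv12-98 for Myocd (0.986). The next for Actg2 were Fbln1, Crip1, Prkg2 and Psme2b. Among the members themselves r ran from 0.626 to 0.998 over 45 pairs, with a median of 0.892. All these values are over 4 tissues with 2 libraries each, so that any gene high in the same tissues resembles a member.

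The libraries held 9164184 to 21444659 reads on genes, recovered from the steps of the FPKM values, and 3 reads on a gene of 1 kb were worth an FPKM of 0.140 to 0.327. The 4 identity markers of each tissue were all called higher in their own tissue. The 2 libraries of a tissue came from separate mice, each of which gave all 4 tissues. The limma p-values rest on the spread between the 2 libraries of each tissue, pooled over tissues and drawn toward a trend across tested genes. The permutation p-values rest on exchanging libraries between tissues.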

How the data were processed

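RNA was extracted with Trizol from whole kidney, liver, lung and small intestine, 2 libraries per tissue, and polyadenylated RNA was sequenced. The authors deposited FPKM values for 52195 genes. According to the methods and the submitters' processing notes, reads were mapped to GRCm38 with STAR 2.5.3a and FPKM was computed with DESeq2. The counting tool and its use of strand are not given in the sources used here.

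Gene symbols were matched to GENCODE M21 (51844 of 52195, 99.3%). Whole reads could be worked out from the spacing of low FPKM values (up to 50 reads, 94.5% to 96.1% of values per library lay within 0.02 of a whole read). Genes entered the test if 2 or more libraries reached an FPKM of 1, and were tested on log2(FPKM + 1) with limma 3.58.1 (eBayes with a trend) in R 4.3.3, all 8 libraries in the same fit. P-values were adjusted by Benjamini-Hochberg over 16328 genes, and a gene was called when the adjusted p was under 0.05 and the log2 difference exceeded 1 in size. An exact permutation test over libraries was added for each member. Python 3.11.15, numpy 2.4.6, pandas 2.3.3 and matplotlib 3.10.9 were used.

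The alternatives were another pseudocount (0.1), other filters, scalings and thresholds, no trend, limma-voom on recovered reads, a replicate block and the omission of each library. All members were named. From the other lists the rule was to name the 3 genes with the largest and the 1 with the smallest difference in small intestine. From the muscle, Cajal and neuron lists any gene could be named. The vessel muscle and pericyte markers were not all named by this rule. Other names (Synm, Srf and genes named for the tissue through which they entered the test) were chosen after their values were seen. Members and lists were chosen with earlier results of these data known.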

Additional observations from a re-analysis of the deposited data

How the results depend on the processing

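Of the values recomputed for single members under the alternatives, 720 kept their direction and side of the threshold, 25 lost a call, 10 gained a call and 13 changed sign. Lung against the other tissues gave 4 called members with median-of-ratios scaling (14.6% of all genes). Small intestine against lung gave 2 with that scaling (15.8%) and 2 with the adjusted p alone (14.7%). Myh11, the second gene in both, passed neither threshold when rescaled to the same sum (0.44, adjusted p = 0.192 by limma). Kidney against liver gave 6 with a pseudocount of 0.1 (24.8% of all genes, 16.2% as reported) and 5 with limma-voom on recovered reads (23.3%), but 2 with median-of-ratios scaling (11.4%) and 2 when rescaled to the same sum (13.2%). With 1 added to both values, the mean ratio of Actg2 to Acta2 was 0.0791 in kidney, 0.331 in liver and 0.112 in lung, and that of Des to Acta2 was 0.149, 0.493 and 0.33, as the constant itself raises ratios of low values. The signs changed for small intestine against lung with median-of-ratios scaling in Acta2 (0.50), Des (0.67), Lmod1 (0.30), Smtn (0.38) and Synpo2 (0.33). Cnn1 in that comparison changed to -0.31 when rescaled to the same sum, and ran from -0.058 to 0.14 with 1 library left out. Des there changed to 0.092 with mitochondrial genes left out, and ran from -0.22 to 0.025 with 1 library left out. Smtn in kidney against the other tissues changed to -0.054 when rescaled to the same sum, and ran from -0.25 to 0.52 with 1 library left out. Actg2 between kidney and liver changed to -0.071 with median-of-ratios scaling, and ran from -0.11 to 0.23 with 1 library left out. The cause of these changes was not tested. With 1 library left out in turn, the count of called members was 5 to 7 for small intestine, 7 to 8 for lung, 5 to 6 for kidney, 8 for liver, 1 for small intestine against lung and 2 to 3 for kidney against liver.

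Nothing ties the replicate numbers to mice, so whether they pair the libraries is unknown. The differences between replicates 1 and 2 correlated between tissues by -0.217 to 0.053, and the numbers were not treated as pairs. With the replicate block the counts were 7, 8, 6, 8, 1 and 3 in the same order, as without it. With 2 libraries per tissue, values of fewer than 3 reads (Myocd and Tagln in both liver libraries, Myocd in kidney replicate 2, Lmod1 and Synpo2 in liver replicate 1 and Actg2 in liver replicate 2) were not distinguished from 0.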
